A study of Mus musculus with 6 samples.

Results

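The genes described here are the FoxO transcription factors Foxo1 and Foxo3 and 8 genes known as their targets, namely Pdk4, Sesn1, Sesn3, Ccng2, Txnip, Klf15, Pik3ip1 and Fbxo32. They were chosen by name, and all 10 were found among the 14861 genes of the deposited table and passed the filter on low values. Their RNA was measured in inguinal white fat, the subcutaneous pad of the groin, of AdIGF1RKO mice (3 libraries) and of littermate Flox mice (3 libraries). AdIGF1RKO mice combine a floxed Igf1r gene (the tm2Arge allele, on a B6;129 background) with Cre recombinase driven by the adiponectin promoter (the Adipoq-Cre transgene 1Evdr, on a B6;FVB background), and Flox mice carry the floxed gene and served as controls. Both groups received a low-fat diet (10% of kcal as fat; 24 weeks, per the series' design text) and were fasted overnight and anaesthetised with Avertin before the tissue was frozen. The labels give no ages. Adiponectin is made by adipocytes, so the pad's vessels, immune cells, nerves and adhering muscle keep the receptor, and in bulk RNA fewer cells of a type and less RNA per cell cannot be told apart.

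FoxO proteins are forkhead transcription factors that the insulin and IGF1 pathway holds back. When the receptors signal through PI3-kinase, Akt phosphorylates FoxO proteins and they leave the nucleus; when the signal falls, as in fasting, they return and switch on genes that spare glucose, slow growth and brake the same pathway. The regulation is therefore largely of the protein, and the RNA of a FoxO gene need not move for its targets to do so. In muscle the same factors drive the ubiquitin ligases of wasting, and several of the targets are also abundant in muscle.

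The promoter windows of the target genes were searched for the letters that FoxO proteins are known to bind, TGTTTAC, and for the core of the insulin response element, TGTTTTG, on both strands. A window runs from 250 bases before to 50 bases after a start in RefSeq (build GRCm38.p6), and 9 of the 10 genes had a window. Of 32851 windows of this length, 3.65% hold the first motif and 6.28% the second, and the motifs differ in their sixth and seventh letters, so no position matches both. The first occurs before the start of Txnip and after a start of Sesn1, and the second before the start of Ccng2. These sequences are shown because they are the matches among the genes studied, with the motif (either strand) in capitals. The Txnip stretch is chr3:96557707-96557956 (plus strand), where the match begins 121 bases before the start. The Ccng2 stretch is chr5:93267323-93267572 (plus strand), where it begins 16 bases before the start. The Sesn1 site is chr10:41810586-41810612 (plus strand), within the transcribed part, where it begins 22 bases after the start.
Txnip: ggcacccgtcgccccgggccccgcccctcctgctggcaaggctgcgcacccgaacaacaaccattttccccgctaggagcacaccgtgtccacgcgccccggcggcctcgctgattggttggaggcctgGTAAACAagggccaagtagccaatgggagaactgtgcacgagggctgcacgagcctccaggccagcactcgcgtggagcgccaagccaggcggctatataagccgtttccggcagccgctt
Ccng2: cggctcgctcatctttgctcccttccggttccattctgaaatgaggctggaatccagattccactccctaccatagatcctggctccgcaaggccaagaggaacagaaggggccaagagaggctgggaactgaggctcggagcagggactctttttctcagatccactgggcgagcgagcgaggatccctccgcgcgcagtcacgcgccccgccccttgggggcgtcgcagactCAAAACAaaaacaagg
Sesn1: aaccttctacTGTTTACcagccttttg
Neither motif was found in the windows of Foxo1, Foxo3, Pdk4, Klf15, Pik3ip1 or Sesn3, which says only that these letters are not in these windows.

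The libraries held between 60617147 and 70695527 reads in the table. Values are given as scaled CPM, reads as a share (CPM) of a library of geometric mean size after median-ratio scaling, in which a single read is worth 0.0130 to 0.0207. Skeletal muscle RNA varied widely between libraries, since 19 markers of that tissue took 0.0587% of the reads in AdIGF1RKO 1, 0.305% in AdIGF1RKO 2 and 5.03% in AdIGF1RKO 3, against 0.975% in Flox 1, 0.117% in Flox 2 and 13.9% in Flox 3. AdIGF1RKO 2 stood apart in another way, with a summed level of 8 macrophage markers of 927 scaled CPM. That sum was 335 to 412 in the other AdIGF1RKO libraries and 308 to 450 in Flox. The excess lay in Spp1 (182 in AdIGF1RKO 2), Cd68 (172), Mmp12 (121), Gpnmb (96.9) and Trem2 (62.8). Adgre1, at 73.6, was a little above Flox 1 (67.8). Csf1r (94.6) and Mrc1 (123) were below Flox 1 (112 and 136). Of the 8 markers 6 had a positive log2 difference, 2 a negative one, and 0 passed limma. The 10 adipocyte markers were all present, with summed levels of 46324 to 52164 scaled CPM in AdIGF1RKO and 49856 to 63611 in Flox. Of these Lep, the gene of the hormone leptin, named here after its values were seen, had 396, 580 and 502 scaled CPM in AdIGF1RKO and 200.2, 277 and 159 in Flox without overlap (unadjusted p = 0.00146, adjusted p = 0.998 in limma). Of 6 endothelial markers 5 were higher in AdIGF1RKO without overlap, where 4.41% of all tested genes were, with summed levels of 441 to 513 in AdIGF1RKO and 377 to 432 in Flox; 2 had an unadjusted p under 0.05 and 0 passed adjustment in limma. Igf1r itself had 6.11, 5.27 and 4.85 scaled CPM in AdIGF1RKO and 6.44, 6.47 and 5.86 in Flox. The groups overlapped, and the log2 difference of -0.18 (standard error 0.12) missed the limma threshold (adjusted p = 0.998). Which exons Cre removes is not stated in the labels, so a count over the whole gene checks the deletion only in part.

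None of the 10 genes differed between AdIGF1RKO and Flox beyond the spread of the libraries. Foxo1, Foxo3, Sesn3 and Ccng2 were slightly higher and the other 6 lower, where 55.2% of all 12993 genes tested were lower. The median log2 difference of the 10 was -0.07, against -0.02 for all genes tested. For each of the 10 the groups overlapped, where 8.27% of all tested genes had groups that did not overlap. limma called 0 of the 10 at an adjusted p under 0.05, and the call rate over all genes was 0%. At an unadjusted p under 0.05 it called 0 of the 10 as well, and 2.96% of all genes (385). With the replicate number as a block it again called 0 of the 10 at an unadjusted p, and 4.48% of all genes (582, over 1.5 times as many). edgeR (quasi-likelihood, recovered reads) called 0% of genes (378 at an unadjusted p under 0.05), and DESeq2 called 0.178% (23 genes), none of them a FoxO target or factor named here. The exact permutation test gave two-sided p-values from 0.3 for Foxo3 to 0.9 for Sesn3, and with 3 against 3 it cannot go below 0.1. The direction of these small differences rests on the scaling: with the values as deposited all 10 were negative (median -0.23, all genes -0.17), and with libraries scaled to equal sums 7 were positive (median 0.05, all genes 0.09). Without the libraries numbered 3, 6 of the 10 were negative, against 50.8% of all genes, and with the muscle share as a covariate 7 were negative, against 54.5% of all genes.

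**Figure D1:**
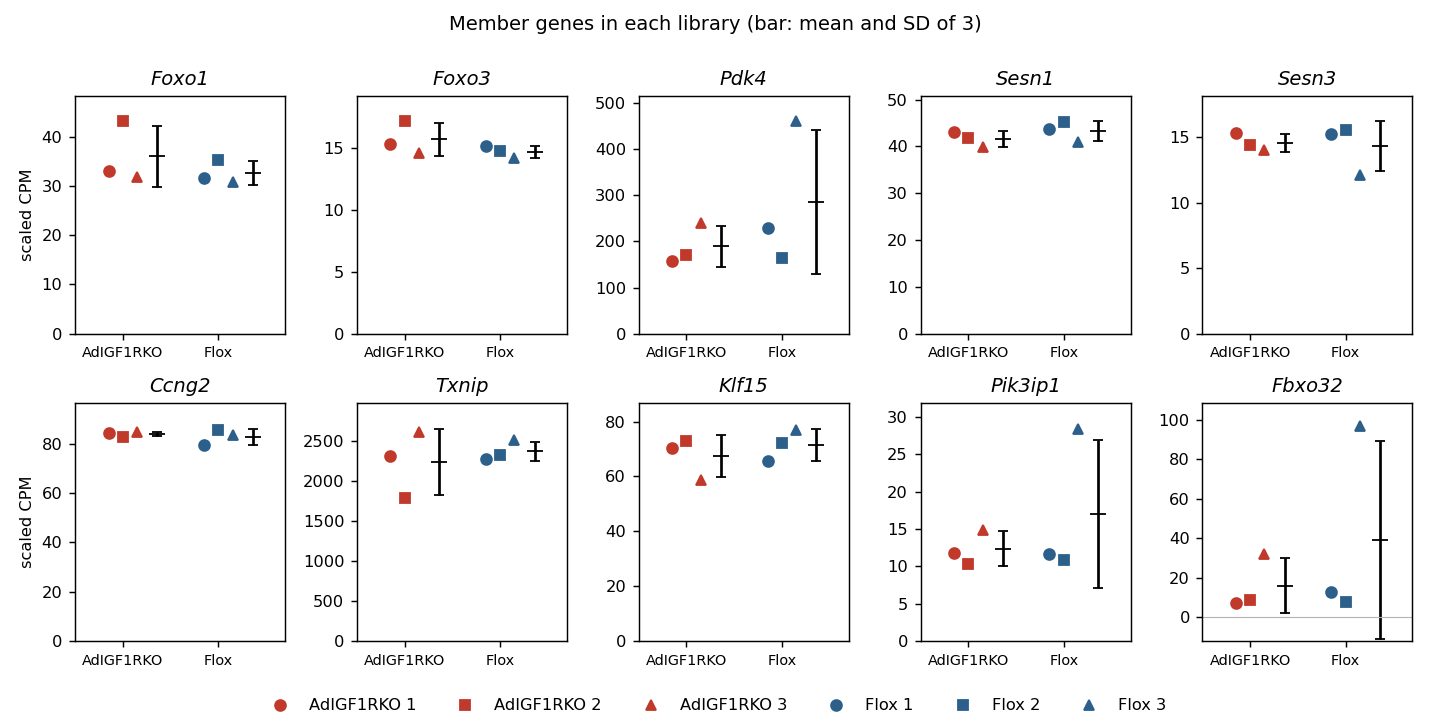
Scaled CPM (linear axes that include 0) of the 10 genes in the 3 AdIGF1RKO libraries (red) and the 3 Flox libraries (blue), marked by replicate number, with the mean and SD of each group in black. The groups overlap in every panel, and Flox 3 lies far above the rest for Pdk4, Pik3ip1 and Fbxo32.

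Foxo1, the FoxO factor best known from fat and liver, had 33.0, 43.1 and 31.7 scaled CPM in AdIGF1RKO and 31.5, 35.3 and 30.9 in Flox. AdIGF1RKO 2, the library with the highest sum of macrophage markers, was the highest, and the other 5 lay close together. Foxo1 averaged 35.97 ± 6.24 scaled CPM in AdIGF1RKO and 32.6 ± 2.41 in Flox (SD, n = 3 each). The log2 difference was 0.13 with a 95% interval from -0.21 to 0.46, and without AdIGF1RKO 2 it was -0.01. The part of the macrophage RNA in the value of AdIGF1RKO 2 was not tested. Foxo3, a paralogue with the same DNA-binding domain, had 15.3, 17.1 and 14.6 in AdIGF1RKO and 15.1, 14.7 and 14.1 in Flox. It too was highest in AdIGF1RKO 2, and AdIGF1RKO 3 lay within the Flox range. Foxo3 averaged 15.7 ± 1.33 scaled CPM in AdIGF1RKO and 14.6 ± 0.488 in Flox (SD, n = 3 each). Its log2 difference was 0.09, with an interval from -0.16 to 0.33. For both factors each knockout lay above the control of the same number, though the groups overlapped. For numbers 1, 2 and 3 the log2 differences were 0.07, 0.28 and 0.04 for Foxo1 and 0.01, 0.21 and 0.04 for Foxo3. Neither factor passed limma (adjusted p = 0.998 each). With the values as deposited both were slightly lower in AdIGF1RKO, at -0.03 and -0.07, where all genes had a median of -0.17.

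Per kilobase of annotated exons, Foxo4 was the most abundant gene of the family in each of the 6 libraries, followed by Foxo1 and then Foxo3. Foxo4 and Foxo6, like other genes of these families outside the 10, are shown for comparison and were chosen after their values were seen. Foxo1 made up 19.01% to 31.4% of the family's scaled CPM per kilobase in AdIGF1RKO and 13.5% to 24.3% in Flox, and Foxo4 53.9% to 69.3% in AdIGF1RKO and 63.6% to 77.4% in Flox. Foxo6 took 0.444% to 2.01% over the 6 libraries and, with 13 to 67 reads, fell under the filter. Foxo4 had 38.3, 29.7 and 46.6 scaled CPM in AdIGF1RKO and 34.8, 37.2 and 71.2 in Flox, highest in each group in the library richest in muscle RNA, with a log2 difference of -0.26 (adjusted p = 0.998 in limma). The order of the 3 genes was the same per kilobase of the longest coding transcript.

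**Figure D2:**
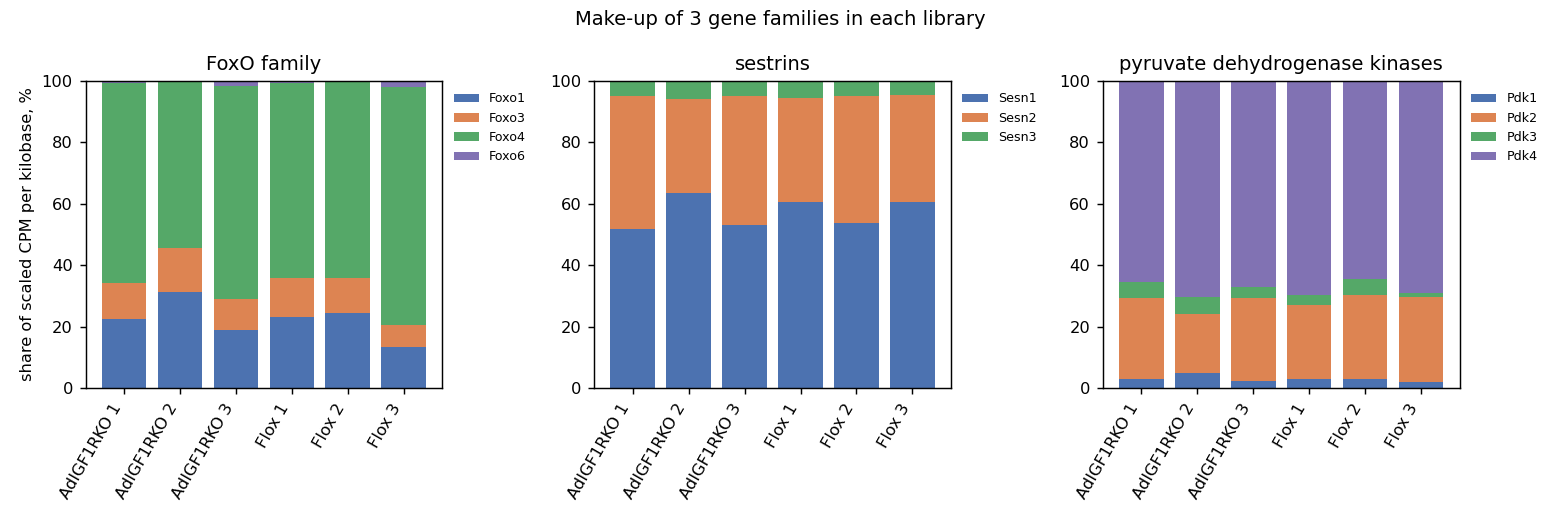
Share of scaled CPM per kilobase of annotated exons (percent, stacked to 100) taken by each gene of the FoxO, sestrin and pyruvate dehydrogenase kinase families, with AdIGF1RKO libraries on the left and Flox libraries on the right. Foxo4, Sesn1 and Pdk4 take the largest share of their family in all 6 libraries.

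Pdk4, the pyruvate dehydrogenase kinase that fasting induces and that keeps pyruvate out of oxidation, had 158, 171 and 241 scaled CPM in AdIGF1RKO and 229, 164 and 461 in Flox. The highest value in each group was that of the library numbered 3, and the groups overlapped. Pdk4 averaged 189.8 ± 44.7 scaled CPM in AdIGF1RKO and 285 ± 156 in Flox (SD, n = 3 each). The log2 difference was -0.47 (standard error 0.38), and Pdk4 did not pass limma (adjusted p = 0.998), edgeR (adjusted p = 0.981) or DESeq2 (adjusted p = 1.000). Without AdIGF1RKO 3 and Flox 3 the log2 difference was -0.24 (adjusted p = 0.998), and over the libraries left out in turn it ran between -0.80 (without Flox 2) and -0.05 (without Flox 3). With the muscle share as a covariate it was -0.25 (standard error 0.16, adjusted p = 0.999 in limma). With the replicate block the unadjusted limma p was 0.0597 (adjusted p = 0.914). Among the 4 kinases Pdk4 took 65.6% to 70.4% of scaled CPM per kilobase in AdIGF1RKO and 64.4% to 69.7% in Flox, so its lead over its paralogues was alike in all libraries. The 14 genes of the pyruvate dehydrogenase complex and its regulators, Pdk4 among them, held 11 negative and 3 positive log2 differences (median -0.07), of which 0 passed. Of all tested genes 55.2% were negative. Pdk2, a kinase found in most tissues, had 57.2, 41.9 and 87.2 in AdIGF1RKO and 71.7, 63.2 and 167 in Flox, each knockout below the control of the same number. Its log2 difference of -0.61 had an unadjusted limma p of 0.196, or 0.00602 with the replicate block (adjusted p = 0.914). Pdk3, another kinase of the complex, had means of 9.05 in AdIGF1RKO and 7.89 in Flox, and the phosphatase gene Pdp1 11.9 in AdIGF1RKO and 14.7 in Flox, both with overlap. Without the libraries numbered 3 the list's median was 0.07, with 9 positive and 5 negative.

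Txnip, the thioredoxin-interacting protein that restrains glucose uptake, was the most abundant of the 10 per kilobase in every library, at 574 to 835 scaled CPM per kilobase in AdIGF1RKO and 730 to 802 in Flox. Over the whole gene it had 2317, 1792 and 2609 scaled CPM in AdIGF1RKO and 2280, 2330 and 2506 in Flox. AdIGF1RKO 2 was the lowest of all 6 libraries and AdIGF1RKO 3 the highest, so the knockouts enclosed the whole range of the controls. Txnip averaged 2239.5 ± 414 scaled CPM in AdIGF1RKO and 2372 ± 119 in Flox (SD, n = 3 each). The log2 difference was -0.10 (standard error 0.16, adjusted p = 0.998 in limma) and 0.05 without AdIGF1RKO 2. Of the 12 genes in the list of thioredoxins, α-arrestins and the glucose-sensing factors that induce Txnip, 8 were negative and 4 positive, 0 passed, and the median was -0.05. Of all tested genes 55.2% were negative. The log2 differences of Mlxip, Mlx and Txnrd2, those with the smallest p among the others of the list, were -0.18, 0.11 and -0.11.

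Klf15, a zinc finger factor of the fasting response that glucocorticoids also induce, had 70.3, 73.0 and 58.6 scaled CPM in AdIGF1RKO and 65.5, 72.1 and 77.1 in Flox. The libraries numbered 3 lay at opposite ends, the lowest being AdIGF1RKO 3 and the highest Flox 3, while the others overlapped. Klf15 averaged 67.3 ± 7.67 scaled CPM in AdIGF1RKO and 71.6 ± 5.84 in Flox (SD, n = 3 each). The log2 difference was -0.09 (standard error 0.12, adjusted p = 0.998 in limma), 0.06 without the libraries numbered 3 and 0.03 with libraries scaled to equal sums. Among 8 genes around Klf15 and the glucocorticoid response, Klf15 among them, 7 were negative and 1 positive, where 55.2% of all tested genes were negative. Their median was -0.12, and 0 passed. Without the libraries numbered 3, 5 were negative and 3 positive, and with the muscle share as a covariate the median was -0.21. Zbtb16, a glucocorticoid-induced zinc finger gene, had 85.8, 95.3 and 76.9 in AdIGF1RKO and 99.5, 103 and 97.0 in Flox without overlap, which held for 3.86% of tested genes in this direction (log2 difference -0.22, unadjusted p = 0.0735 in limma). Sgk1, a kinase that phosphorylates FoxO proteins, had means of 97.1 in AdIGF1RKO and 123 in Flox, and the clock gene Per1 32.0 in AdIGF1RKO and 36.1 in Flox, both with overlap.

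Sesn1 and Sesn3 belong to the sestrins, stress proteins that restrain mTORC1, and both varied little between libraries. Sesn1 had 43.1, 41.8 and 39.9 scaled CPM in AdIGF1RKO and 43.8, 45.1 and 41.0 in Flox. Each knockout lay a little below the control of the same number, but the groups overlapped. Sesn1 averaged 41.6 ± 1.63 scaled CPM in AdIGF1RKO and 43.3 ± 2.12 in Flox (SD, n = 3 each). The log2 difference was -0.06 with a 95% interval from -0.26 to 0.15. Sesn3, a sestrin that FoxO factors induce, had 15.3, 14.4 and 14.0 in AdIGF1RKO and 15.2, 15.6 and 12.1 in Flox, with Flox 3 the lowest. Sesn3 averaged 14.6 ± 0.695 scaled CPM in AdIGF1RKO and 14.3 ± 1.92 in Flox (SD, n = 3 each). Its log2 difference was 0.03 with an interval from -0.27 to 0.33, and -0.05 without the libraries numbered 3. Per kilobase of annotated exons Sesn1 took 51.8% to 63.5% of the family's level in AdIGF1RKO and 53.8% to 60.8% in Flox. Sesn3 took 4.68% to 5.70% over the 6 libraries, the rest being Sesn2. The share of Sesn3 depends on the length used, and was 7.39% to 8.93% per kilobase of the longest coding transcript. Sesn2 varied more, with 31.6, 17.7 and 27.6 scaled CPM in AdIGF1RKO and 21.4, 30.2 and 20.3 in Flox, lowest in AdIGF1RKO 2 (log2 difference 0.07, standard error 0.25).

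Of 12 sestrins and other brakes on mTORC1, 8 were negative and 4 positive (median -0.05), where 55.2% of all tested genes were negative, and 0 passed. Castor1, the arginine sensor that holds back mTORC1, stood out from the list with 12.9, 13.2 and 13.2 scaled CPM in AdIGF1RKO and 9.20, 9.52 and 10.2 in Flox. The groups did not overlap, which held for 4.41% of tested genes in this direction, with means 1.36-fold apart and 0.40 on the log2 scale (standard error 0.10). Its unadjusted p of 0.00464 in limma did not pass adjustment (adjusted p = 0.998), nor did Castor1 pass DESeq2 (adjusted p = 0.217). With the replicate block the unadjusted limma p of Castor1 was 0.0131 (adjusted p = 0.914). Ddit4, a stress-induced inhibitor of mTORC1 and a known FoxO target, had 145, 182 and 167 in AdIGF1RKO and 207, 203 and 181 in Flox, where only AdIGF1RKO 2 and Flox 3 crossed (unadjusted p = 0.0618 in limma). Eif4ebp2, a repressor of translation, had means of 73.6 in AdIGF1RKO and 87.6 in Flox.

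Ccng2, an unconventional cyclin linked to cell cycle arrest, was the steadiest of the 10. It had 84.2, 82.8 and 84.5 scaled CPM in AdIGF1RKO and 79.3, 85.6 and 83.6 in Flox. All AdIGF1RKO values lay within the Flox range. Ccng2 averaged 83.9 ± 0.905 scaled CPM in AdIGF1RKO and 82.8 ± 3.24 in Flox (SD, n = 3 each). The log2 difference of 0.02 had a 95% interval from -0.17 to 0.20, the narrowest of the 10. Each value rests on 4034 to 6495 reads.

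Pik3ip1, a membrane protein that inhibits PI3-kinase, had 11.8, 10.4 and 14.9 scaled CPM in AdIGF1RKO and 11.7, 10.8 and 28.4 in Flox. Flox 3 was far above the other 5 and AdIGF1RKO 3 was the next. Pik3ip1 averaged 12.4 ± 2.33 scaled CPM in AdIGF1RKO and 17.0 ± 9.93 in Flox (SD, n = 3 each). The log2 difference was -0.31 (standard error 0.36, adjusted p = 0.998 in limma), -0.02 without both libraries numbered 3 and 0.11 without Flox 3 alone. Of 20 genes of kinases and phosphatases upstream of FoxO, 11 were negative and 9 positive (median -0.04), where 55.2% of all tested genes were negative. Of the 20, 0 passed. With the replicate block 1 of the 20 had an unadjusted limma p under 0.05, against 4.48% of all tested genes. This was Pik3r1, a regulatory subunit of PI3-kinase, named here after its values were seen. It had 70.2, 137 and 80.9 scaled CPM in AdIGF1RKO and 57.5, 108 and 57.5 in Flox. Each knockout was above the control of the same number, but the groups overlapped (log2 difference 0.37, unadjusted p = 0.309 in limma without the block). Pik3cb, a catalytic subunit of PI3-kinase, had 20.3, 23.5 and 22.9 in AdIGF1RKO and 19.4, 19.2 and 19.8 in Flox without overlap (log2 difference 0.18, unadjusted p = 0.105 in limma). That held for 4.41% of tested genes in this direction. Pik3ca, another catalytic subunit, had 31.2, 27.7 and 26.4 in AdIGF1RKO and 33.6, 30.0 and 44.6 in Flox (-0.32). Phlpp2, a phosphatase that acts on Akt, had means of 7.12 in AdIGF1RKO and 8.36 in Flox.

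Fbxo32 encodes atrogin-1, the ubiquitin ligase of muscle wasting. It had 7.07, 8.95 and 31.9 scaled CPM in AdIGF1RKO and 12.9, 7.63 and 96.7 in Flox. The libraries numbered 3 were the highest of their groups by a wide margin, and the remaining 4 lay between 7.07 and 12.9. Fbxo32 averaged 16.0 ± 13.8 scaled CPM in AdIGF1RKO and 39.1 ± 49.96 in Flox (SD, n = 3 each). The log2 difference of -0.71 was the most negative of the 10 and lay at the percentile 1.72 of all tested genes, but its standard error was 0.98 (adjusted p = 0.998 in limma). Without both libraries numbered 3 it was -0.29, with the muscle share as a covariate -0.13, and without Flox 3 alone 0.34, while it was -1.41 without Flox 2, -1.34 without AdIGF1RKO 3, and -1.29 with edgeR and with DESeq2 on the recovered reads (adjusted p = 0.981 in edgeR and 1.000 in DESeq2). Of 10 ubiquitin ligases of atrophy, Fbxo32 among them, 9 were negative and 1 positive (median -0.12), and 0 passed. Of all tested genes 55.2% were negative (median -0.02). The list's median was -0.13 without the libraries numbered 3 (8 negative, 2 positive) and -0.05 with the muscle share as a covariate. Traf6 had means of 11.6 in AdIGF1RKO and 12.9 in Flox and Nedd4 436 in AdIGF1RKO and 464 in Flox, both without overlap. That held for 3.86% of tested genes in this direction. The unadjusted limma p-values of Traf6 and Nedd4 were 0.158 and 0.308. Fbxo31, an F-box gene, had means of 18.6 in AdIGF1RKO and 29.1 in Flox, with overlap.

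The order of the 6 libraries in Fbxo32 and in Pdk4 was exactly their order in the share of skeletal muscle markers, from AdIGF1RKO 1 to Flox 3, and 2.38% of all tested genes had that order. The library numbered 3 exceeded the mean of the other pair in its group 3.99-fold in AdIGF1RKO and 9.43-fold in Flox for Fbxo32. For Pdk4 these folds were 1.47 in AdIGF1RKO and 2.35 in Flox, and for Pik3ip1 1.35 in AdIGF1RKO and 2.53 in Flox. For each of the 3 genes they were above those of 91.6% of tested genes or more, in both groups. Ccng2, with folds of 1.01 in AdIGF1RKO and 1.01 in Flox, was alike in all libraries, and Foxo1 (0.834 in AdIGF1RKO, 0.923 in Flox), Foxo3 (0.8997 in AdIGF1RKO, 0.948 in Flox) and Sesn1 (0.939 in AdIGF1RKO, 0.922 in Flox) were a little lower in those libraries. The part of muscle RNA in the values of Pdk4, Pik3ip1 and Fbxo32 was not tested. The 19 muscle markers themselves all had negative log2 differences, with a median of -1.51, but their standard errors were 0.87 to 2.77. The groups overlapped for all 19, and 0 had an unadjusted p under 0.05 in limma without the replicate block. Together they reflect 1 muscle share per library, so they are not 19 separate observations. Without the libraries numbered 3, Pdk4 and Fbxo32 kept a negative log2 difference with overlapping groups, Foxo3 was higher without overlap (15.3% of tested genes in this direction) and Sesn1 was lower without overlap (15.0%). None of the 10 passed the limma test in that comparison (adjusted p = 0.998 each).

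**Figure D3:**
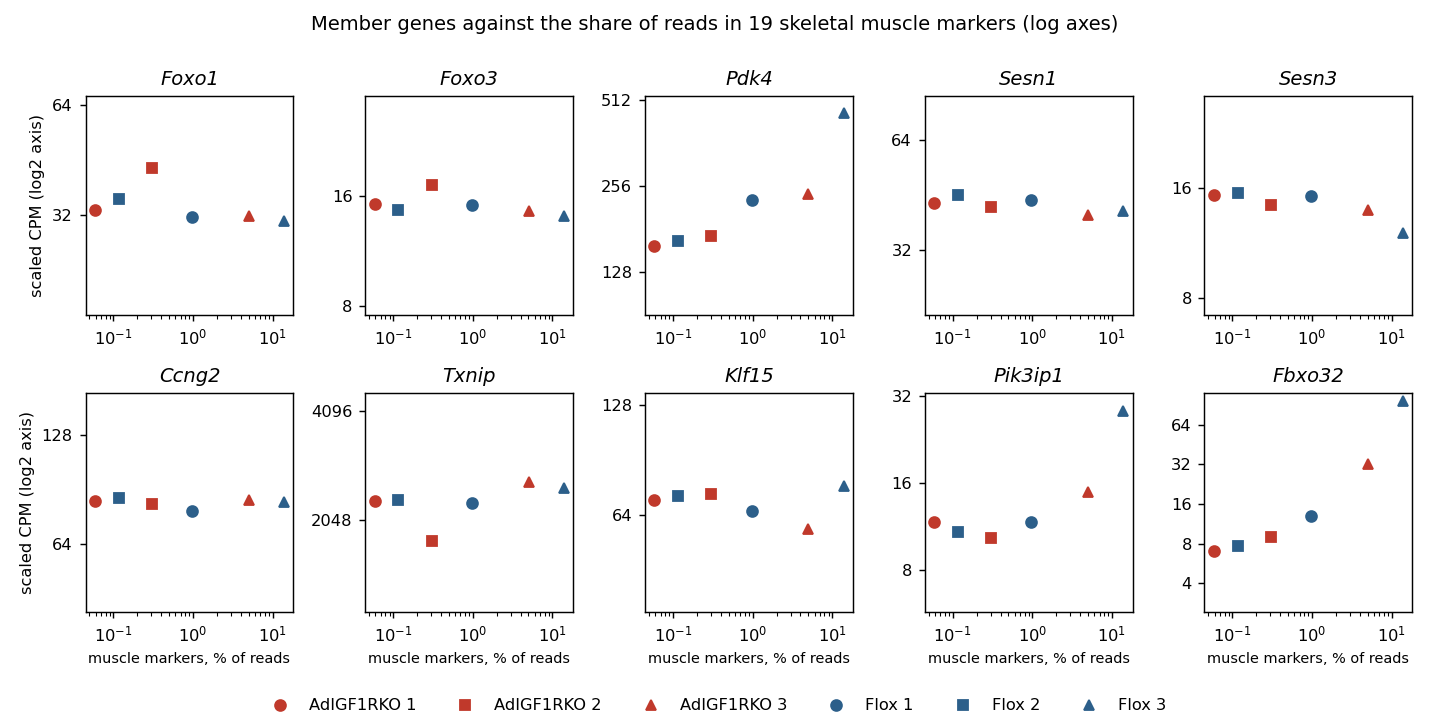
Scaled CPM of the 10 genes (log2 axis) against the percentage of reads in 19 skeletal muscle markers (log axis) in the 6 libraries. Fbxo32 and Pdk4 follow the muscle share from AdIGF1RKO 1 to Flox 3, while Ccng2 stays between 79.3 and 85.6.

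**Figure D4:**
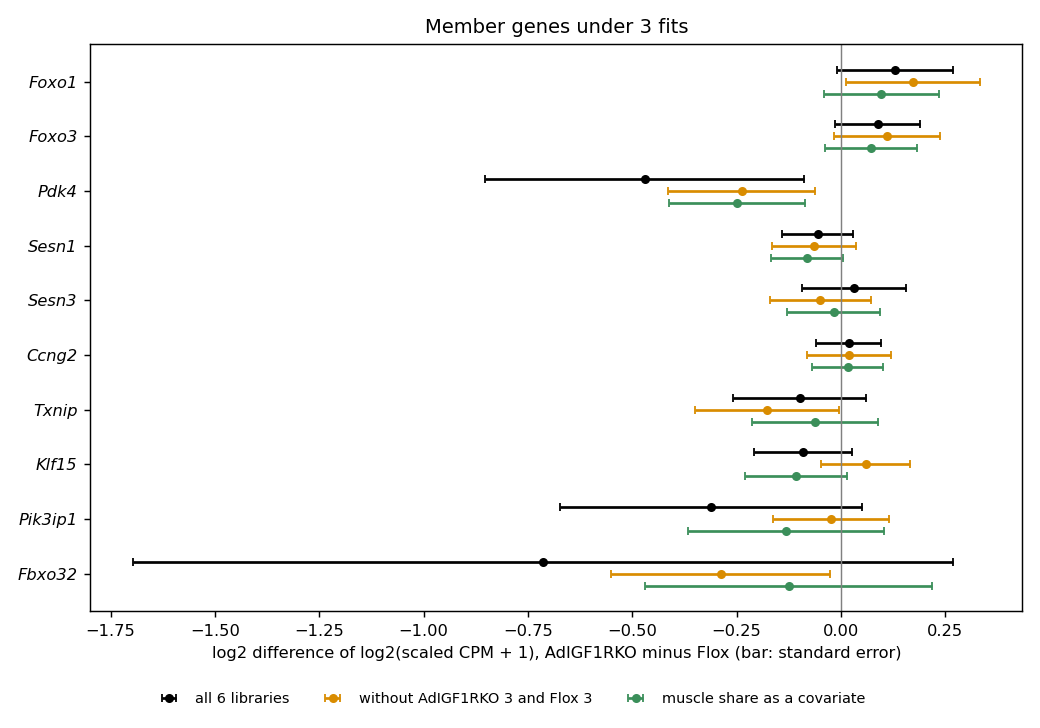
Log2 difference (AdIGF1RKO minus Flox, on the log2(scaled CPM + 1) scale) with its standard error for the 10 genes, with all 6 libraries, without AdIGF1RKO 3 and Flox 3, and with the muscle share as a covariate. The value of Fbxo32 was -0.71, -0.29 and -0.13 in these fits, and that of Ccng2 was 0.02 in each.

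A wider list of 40 genes known as FoxO targets in various tissues had 39 in the table, all of which were tested. Of these 28 were negative and 11 positive, with a median log2 difference of -0.11, where 55.2% of all tested genes were negative with a median of -0.02. limma called 0 of the 39 at an adjusted p and 0 at an unadjusted p under 0.05, against 0% and 2.96% of all tested genes. With the replicate number as a block it called 1 of the 39 at an unadjusted p, Ulk1, against 4.48% of all tested genes. The median was -0.03 without AdIGF1RKO 2, -0.10 without both libraries numbered 3, -0.27 with the values as deposited (all genes -0.17) and 0.01 with libraries scaled to equal sums (all genes 0.09). Ulk1, the kinase that starts autophagy, had 17.4, 18.0 and 23.6 scaled CPM in AdIGF1RKO and 24.8, 22.3 and 35.6 in Flox, with a log2 difference of -0.45 (unadjusted p = 0.0659 in limma). The overlap was small, since only AdIGF1RKO 3 lay above the lowest control, and each knockout was below the control of the same number. With the replicate block the unadjusted p was 0.00787, which did not pass adjustment (adjusted p = 0.914 in limma). Sod2, the mitochondrial superoxide dismutase, had 168, 221 and 165 in AdIGF1RKO and 163, 151 and 142 in Flox without overlap (0.26, unadjusted p = 0.0974 in limma). That held for 4.41% of tested genes in this direction.

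The targets closest to insulin action did not pass the test either. Irs2, the insulin receptor substrate that FoxO1 induces in fasted liver, had 24.6, 13.6 and 22.6 scaled CPM in AdIGF1RKO and 18.2, 31.4 and 17.6 in Flox, spread widely in both groups. Insr, the insulin receptor, had 38.8, 41.1 and 43.6 in AdIGF1RKO and 43.7, 45.2 and 41.8 in Flox. Pnpla2, which encodes the lipase ATGL, had 1686, 1112 and 1314 in AdIGF1RKO and 1361, 1785 and 1235 in Flox. These 3 genes had log2 differences between -0.13 and -0.08, and the groups overlapped for each. Trim63, the second ubiquitin ligase of muscle wasting, had 0.622, 8.85 and 120 in AdIGF1RKO and 23.7, 1.87 and 393 in Flox, again in the order of the muscle share. Its log2 difference was -1.28 (standard error 2.15), and 0.09 with the muscle share as a covariate.

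**Figure D5:**
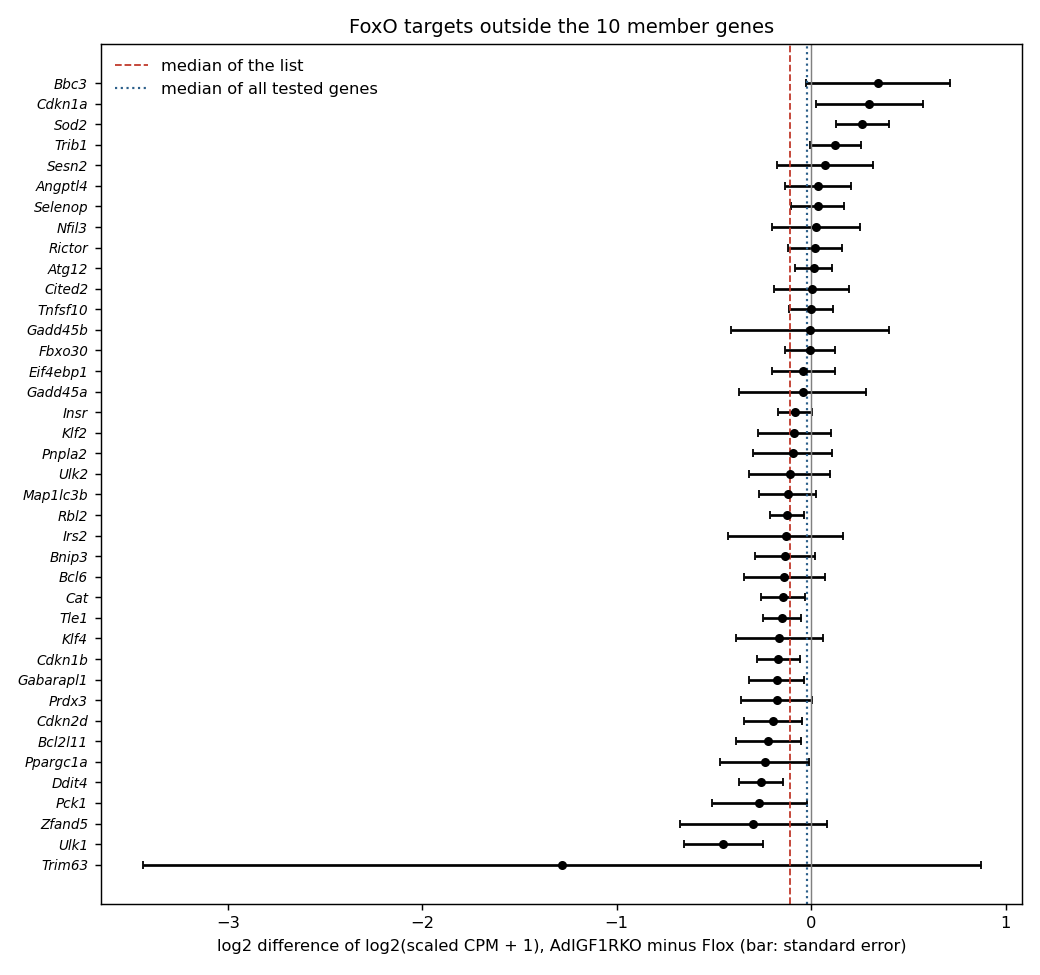
Log2 difference (AdIGF1RKO minus Flox, on the log2(scaled CPM + 1) scale) with its standard error for 39 FoxO targets outside the 10 genes, sorted by size. The median of the list, -0.11, lies below that of all tested genes, -0.02, and Trim63 at -1.28 has the widest error.

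Genes of FoxO coregulators, which modify or hold the proteins, did not pass either. Of 15 genes of the family and its coregulators 14 were tested, 8 negative and 6 positive, where 55.2% of all tested genes were negative. Their median was -0.05, and 0 passed. The acetyltransferase genes Kat2b and Crebbp had means of 59.3 and 9.60 in AdIGF1RKO and 64.9 and 10.7 in Flox, and the kinase gene Stk4 19.7 in AdIGF1RKO and 17.9 in Flox. The groups overlapped for all 3.

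The genes whose profile over the 6 libraries was most like that of Foxo1, by the root mean square difference of log2 deviations among 6756 genes that varied at least as much, were Tle2 (0.04), Gper1 (0.05) and Pdxk (0.05). All 3 were highest in AdIGF1RKO 2, as Foxo1 was, which largely follows from picking them by likeness. For Pdk4 they were Prkar2a (0.08), Pde4d (0.09) and Cbfb (0.09) among 728 genes. All 3 were highest in Flox 3, with 69.7, 36.2 and 105 scaled CPM, and next highest in AdIGF1RKO 3, as Pdk4 was. This too largely follows from the way they were picked.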

How the data were processed

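Polyadenylated RNA of 6 inguinal fat samples, 3 AdIGF1RKO and 3 Flox, was sequenced with a stranded kit, per the labels' protocols. The build was GRCm39 per the submitters' processing notes; the aligner, counter, annotation and filter are not named in the labels or the file. The authors deposited 1 table of scaled signal values for 14861 genes. Its name says FPKM, but within a rounding tolerance of 0.5 every value (100% in each library) is a whole number of reads times 1 factor per library, not divided by length; no value is 0. Because the values are no FPKM, the reads were recovered, divided by median-ratio size factors (0.728 in Flox 3 to 1.16 in AdIGF1RKO 1) and expressed as scaled CPM. Whether reads were counted by strand is not given, and annotated genes on the opposite strand overlap exons of Foxo1, Txnip, Pik3ip1 and Fbxo32, so reads of these pairs may be mixed.

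Genes with a mean of at least 1 scaled CPM (12993) were fitted in R 4.3.3 with limma 3.58.1, using log2(value + 1) and a trend in the variance, AdIGF1RKO minus Flox, two-sided, with Benjamini-Hochberg adjustment at 0.05. Differences on this scale understate the change of low genes. The fit was also run on simulated reads in which each gene varied on its own, without a muscle share or replicate number common to many genes. That run therefore does not show how the fit handles genes that vary with muscle RNA. edgeR 4.0.16 and DESeq2 1.42.0 on the recovered reads, other scalings, filters and pseudocounts, each library left out, a replicate block, and fits without or adjusted for the muscle-rich libraries were alternatives. Titles speak of mice, but nothing else says how replicates arose, so p-values measure the spread between these samples. Same-numbered libraries deviated together (correlations across genes of 0.35, 0.35 and 0.83 for numbers 1, 2 and 3). By the rule used here this pairs them, although AdIGF1RKO 1 deviated more like Flox 2 (0.70). The labels give no reason for the pairing. The main fit leaves the replicate numbers out, so its p-values and intervals are unpaired unless the replicate block is named.

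Lengths for levels per kilobase are those of all exons in GENCODE M21 (an earlier build). The 10 genes, the lists and the tests were chosen with earlier results of these data known. Genes named are the 10, Igf1r, in each list the 3 others with the smallest p, Irs2, Trim63, Insr and Pnpla2, and the 3 profiles most like Foxo1 and Pdk4. The 8 macrophage markers were named after their values were seen. The limma intervals and p-values rest on the spread between libraries. The edgeR and DESeq2 p-values come from counts of reads without molecular identifiers, which these tests take as separate reads.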

Additional observations from a re-analysis of the deposited data

How the results depend on the processing

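None of the 10 genes passed under any of the 17 other settings that were run. Of all tested genes 0 passed in each setting except 2: without Flox replicate 1 the count was 1 (0 to 1 over the libraries left out in turn), and with DESeq2 it was 23 (494 at an unadjusted p under 0.05). With the replicate number as a block 0 genes passed, the log2 differences were those without it, and no call on adjusted p changed. For Fbxo32 (-0.71) the unadjusted limma p was 0.0787 with the block and 0.493 without it. For Pdk4 (-0.47) it was 0.0597 with the block and 0.261 without it. Both had an adjusted p of 0.914 in limma with the block. The median of the 10 genes was -0.23 with the values as deposited, 0.048 with equal sums, and -0.10 to -0.0054 over the libraries left out in turn. For the 39 other targets it was -0.27, 0.011 and -0.13 to -0.032 under these. The log2 difference changed sign at least once for 20 of the named genes (35 of 747 values). With the values as deposited it was -0.14 for Ccng2, -0.031 for Foxo1, -0.067 for Foxo3, -0.12 for Sesn3, -0.046 for Mlx, -0.028 for Stk4 and -0.061 for Tle2. With equal sums it was 0.031 for Klf15, 0.065 for Sesn1, 0.024 for Txnip, 0.040 for Insr, 0.033 for Nedd4, 0.029 for Pnpla2 and 0.012 for Txnrd2. Without both libraries numbered 3 it was 0.059 for Klf15 and -0.050 for Sesn3, and with the muscle share as a covariate -0.017 for Sesn3 and 0.090 for Trim63. Over the libraries left out in turn it ranged over -0.012 to 0.042 for Ccng2, -1.41 to 0.34 for Fbxo32, -0.0054 to 0.21 for Foxo1, -0.15 to 0.0047 for Klf15, -0.55 to 0.11 for Pik3ip1, -0.077 to 0.093 for Sesn3 and -0.22 to 0.053 for Txnip. For the remaining genes the range was -0.69 to 0.10 for Cbfb, -0.28 to 0.13 for Irs2, -0.40 to 0.0027 for Pdp1, -0.25 to 0.059 for Pnpla2, -0.040 to 0.18 for Tle2 and -2.99 to 0.57 for Trim63. Genes of the 10 that kept their sign over the libraries left out in turn ranged over -0.80 to -0.055 for Pdk4, 0.025 to 0.13 for Foxo3 and -0.094 to -0.025 for Sesn1. Of these, Foxo3 and Sesn1 changed sign under another scaling, as given above. The cause of these sign changes was not tested. With the longest coding transcript as length, chosen after seeing the data, Pdk4 took 60.6% of its family's level per kilobase in the median library, against 68.2% with all exons. Each of the 10 genes had at least 535 reads in each library.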
